A study of Mus musculus with 6 samples.

Results

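Cytokine receptors that signal through gp130, the kinases and transcription factor they engage and the inhibitor they induce were examined in the stellate ganglia of mice whose aorta had been narrowed and of sham-operated mice. The genes were Il6st (which encodes gp130), Lifr, Cntfr, Osmr, Cntf, Jak1, Jak2, Stat3 and Socs3. They were chosen by name, and every probe set of the array whose annotation gave exactly 1 gene symbol and that symbol among the 9 was taken. This found 24 probe sets of 8 genes, among 18193 genes with such a probe set in all. Cntf had none. Its 1 probe set on the array, 1422033_a_at, lists 3 gene symbols and was not read as Cntf.

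The stellate ganglia are the paired sympathetic ganglia that send most of the heart's sympathetic nerve fibres. Both ganglia of 1 male C57/Bl6 mouse were pooled for each of 6 arrays, 3 from mice 8 weeks after transverse aortic constriction (TAC), which narrows the aortic arch and raises the pressure that the left ventricle works against, and 3 from sham-operated mice. The arrays of each group carry the letters A, B and C in their titles. The labels name no altered genotype, drug or age, and they give 1 animal per array. The ganglion was measured as a whole, so a change in the number of cells of a type and a change in RNA per cell cannot be told apart.

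In background, gp130 is the signalling chain shared by the receptors of interleukin-6, leukaemia inhibitory factor (LIF), oncostatin M, cardiotrophin-1 and ciliary neurotrophic factor (CNTF). Interleukin-6 with its own receptor chain joins gp130 chains to each other, while the other ligands named join gp130 to LIFR or OSMR, with CNTFR added for CNTF. The bound JAK kinases phosphorylate the receptor tails, and STAT3 docks there, is phosphorylated and enters the nucleus. SOCS3 is among the genes that STAT3 turns on, and it binds gp130 and the JAKs and shuts the signal off. In sympathetic neurons, LIF and CNTF are known for raising neuropeptide and cholinergic genes and lowering noradrenergic ones, and LIF signalling is a part of the response to axon injury.

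Expression was read as log2 probe set intensity. Of the 24 probe sets, 14 had a mean log2 intensity of at least 4 over all arrays and were tested, and 10 lay below this floor and are called dim. The tested ones covered 7 genes, and the dim ones included all 3 of Osmr. None of the 14 was called (limma adjusted p under 0.05), where 0% of all 17550 probe sets tested were called, and the smallest adjusted p among the 14 was 0.542. At an unadjusted p under 0.05 there were 3, all higher after TAC, where 9.08% of all probe sets tested passed and 6.03% passed in that direction. These 3 were 1 probe set of Cntfr and 2 of Stat3. The count depended on single arrays and on the scaling, as did the count over the whole array. With TAC A or with sham B left out it was 2. It was 1 with quantile normalization, 1 without TAC B, 1 without sham A and 1 without sham C (Stat3 1460700_at each time), and 0 without sham C and TAC B together. Without TAC C it was 1, a Socs3 probe set, and none of the 3 passed. Over all 17550, 795 passed as higher and 832 as lower with quantile normalization. These numbers were 826 and 418 without TAC B, 1251 and 429 without sham A, and 628 and 449 without sham C. They were 780 and 367 without TAC C, 1187 and 617 without TAC A, and 817 and 507 without sham B. Without sham C and TAC B together they were 563 and 397, against 1059 and 535 with all arrays. Every TAC array lay above every sham array in 4 of the 14, against a background of 9.02%, and the reverse held in 0, against 8.85% (17.9% in either direction). By brightest probe sets, 1 of the 7 genes lay above and 0 below, where 874 of all 9955 genes tested lay above and 905 below. With each of the 7 genes read by its brightest probe set, the median log2 difference (TAC minus sham) was 0.10, where the median of all 9955 genes tested was 0.02. For any one value, the smallest p that exact permutation of 3 arrays against 3 allows is 0.1.

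**Figure D1:**
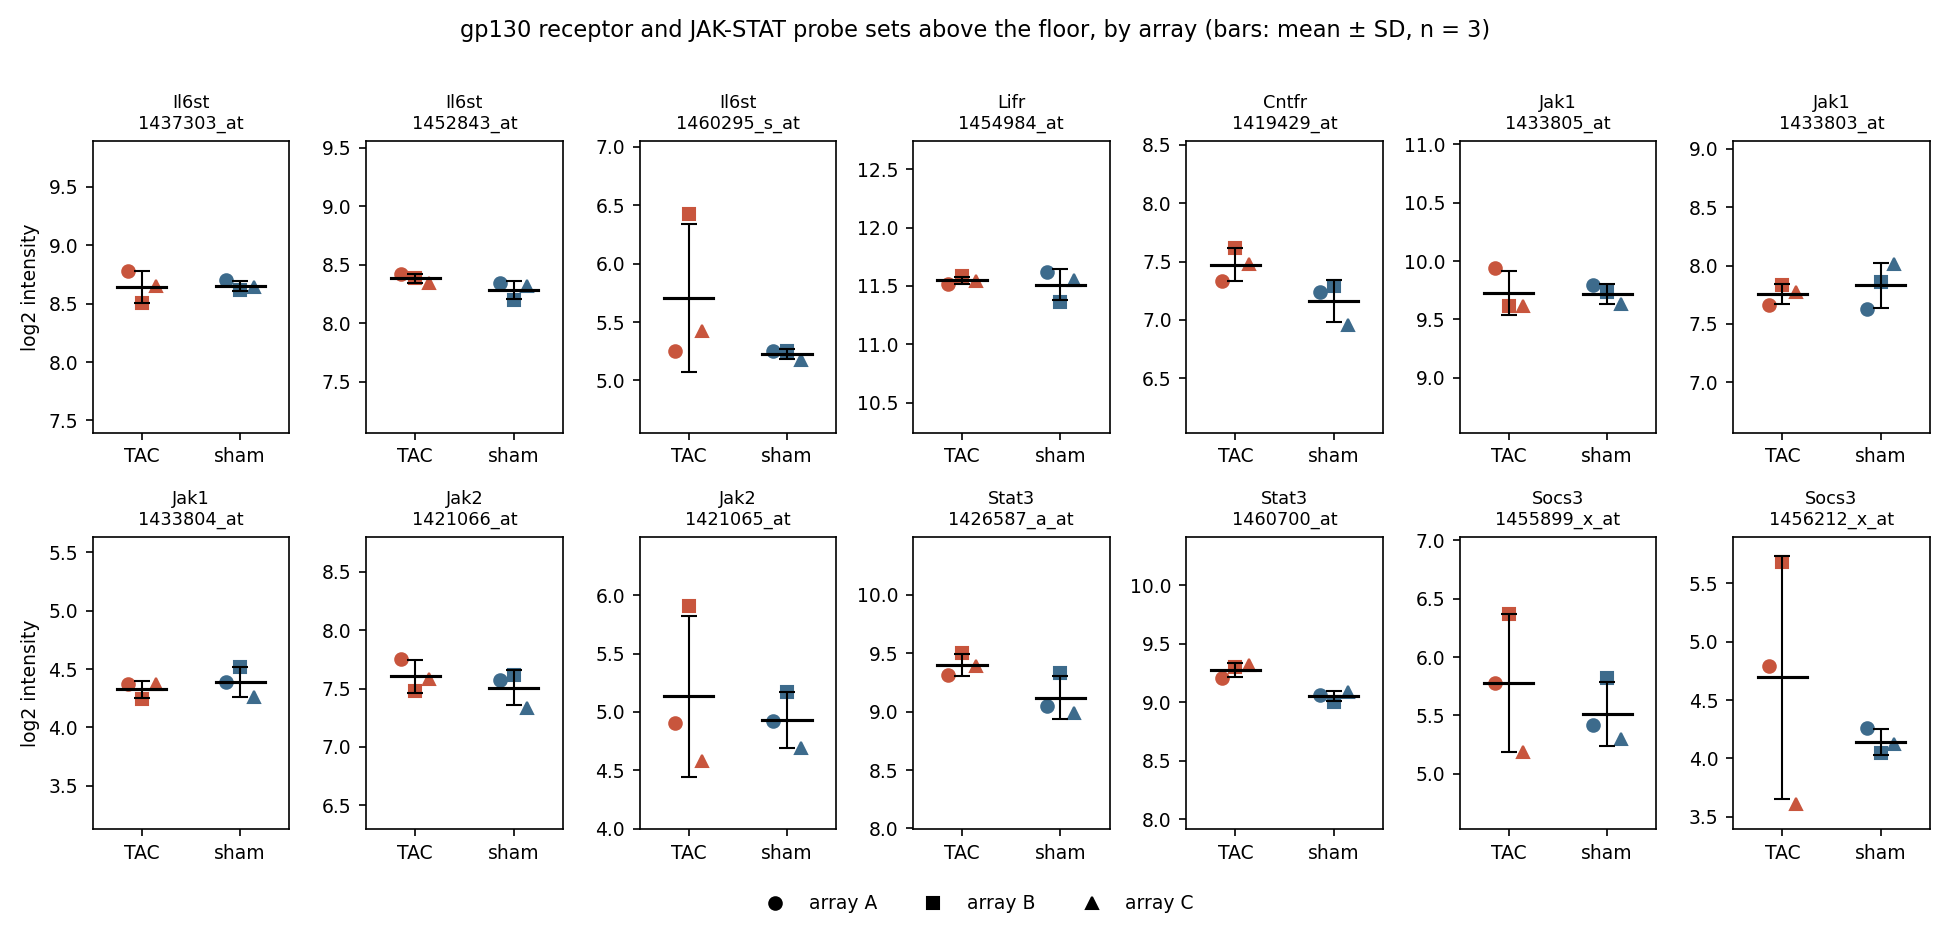
Log2 intensity of the 14 tested probe sets on each array, TAC at the left and sham at the right of each panel, with marker shapes for the letters A, B and C and bars for the mean ± SD (n = 3). Every vertical axis spans the same number of log2 units. Groups are apart for Cntfr and for Stat3 1460700_at, and narrowly for Il6st 1452843_at and 1460295_s_at. TAC B is the highest point in Il6st 1460295_s_at, Jak2 1421065_at and both Socs3 probe sets, where the TAC bars are widest.

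Among the receptors, Cntfr, the CNTF-binding chain that gives the shared receptor its specificity for CNTF, had the largest difference among the 7 tested genes by their brightest probe sets. The mean of all tested probe sets of a gene put Socs3 (0.41) above Cntfr (0.31). Probe set 1419429_at measured 7.33, 7.61 and 7.48 on TAC A, B and C, against 7.24, 7.29 and 6.95 on sham A, B and C. All TAC values lay above all sham values, with 0.05 between the lowest TAC and the highest sham array. The means were 7.47 ± 0.14 after TAC and 7.16 ± 0.18 after sham (SD, n = 3 each), 1.24-fold, with a log2 difference of 0.31 (SE 0.12, 95% interval 0.02 to 0.61) that limma did not call (adjusted p = 0.546, unadjusted p = 0.0414). The difference was 0.21 without sham C, the lowest array, and 0.14 without sham C and TAC B together. After quantile normalization it was 0.26 and the groups overlapped. The other Cntfr probe set, 1431663_a_at, was dim, at 3.58 on TAC C and 3.05 to 3.13 on the other arrays. Of the 9954 other genes tested, those whose centred profile over the 6 arrays came closest to that of Cntfr were Cpeb1, Nampt and Tead1, with root-mean-square differences of 0.03, 0.04 and 0.04 on the log2 scale. Cntfr itself varied by 0.20 about its mean in the same measure, and the median gene differed from it by 0.24.

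Il6st, the signalling chain that all these receptors share, had 3 tested probe sets that did not behave alike. The brightest, 1437303_at, measured 8.78, 8.51 and 8.65 on TAC A, B and C, against 8.70, 8.62 and 8.64 on sham A, B and C. The highest and the lowest of these values were both TAC arrays, and the log2 difference was -0.01 (SE 0.09, 95% interval -0.23 to 0.22). Probe set 1452843_at measured 8.42, 8.39 and 8.35 on TAC A, B and C, against 8.34, 8.20 and 8.31 on sham A, B and C. These groups did not overlap, by a margin smaller than 0.01, and the log2 difference was 0.10 (SE 0.08, 95% interval -0.09 to 0.29). Probe set 1460295_s_at measured 5.252, 6.426 and 5.426 on TAC A, B and C, against 5.251, 5.249 and 5.175 on sham A, B and C. The groups were again apart by a margin smaller than 0.01, and the log2 difference of 0.48 (SE 0.30, 95% interval -0.24 to 1.19) was 0.11 without TAC B. Limma called none of the 3 (adjusted p = 0.987, 0.673 and 0.619). The fourth, 1421239_at, was dim at 2.23 to 2.32. The genes closest to the brightest Il6st probe set over the 6 arrays were Prdm16os, Ppp1r7 and Spast, with root-mean-square differences of 0.01, 0.02 and 0.02.

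Lifr, the chain that pairs with gp130 for LIF, cardiotrophin-1 and CNTF, had 1 tested probe set. Its values (1454984_at) were 11.52, 11.58 and 11.54 on TAC A, B and C, against 11.62, 11.36 and 11.55 on sham A, B and C. The TAC values lay inside the sham range, and the log2 difference was 0.04 (SE 0.09, 95% interval -0.18 to 0.26; limma adjusted p = 0.902). The dim Lifr probe sets were highest on TAC B. Probe set 1425107_a_at reached 3.96 there, against 2.93 to 3.54 on the other arrays, and 1450207_at reached 3.08, against 2.17 to 2.36.

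Osmr, the oncostatin M partner chain, was dim in all 3 probe sets and was not tested. Its brightest probe set, 1418674_at, measured 2.93, 4.41 and 2.91 on TAC A, B and C, against 2.96, 2.95 and 2.99 on sham A, B and C. Only TAC B passed the floor, 1.42 above the next array. The other probe sets did not share this value, with 2.46 to 2.54 for 1459217_at and 2.14 to 2.19 for 1418675_at over all arrays.

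None of the kinase probe sets had groups that were apart. Jak1, which docks on gp130 and is the main kinase of its signal, measured 9.94, 9.61 and 9.62 on TAC A, B and C by 1433805_at, against 9.80, 9.73 and 9.63 on sham A, B and C. The ranges overlapped almost wholly, with a log2 difference of 0.01 (SE 0.12, 95% interval -0.27 to 0.29). Its probe sets 1433803_at and 1433804_at differed by -0.07 (95% interval -0.36 to 0.21) and -0.06 (95% interval -0.29 to 0.17). Jak2, a second kinase that binds gp130, measured 7.76, 7.48 and 7.59 on TAC A, B and C by 1421066_at, against 7.57, 7.61 and 7.34 on sham A, B and C. These groups overlapped too, with a log2 difference of 0.10 (SE 0.11, 95% interval -0.18 to 0.38). Its less bright probe set 1421065_at measured 4.91, 5.91 and 4.58 on TAC A, B and C, against 4.92, 5.17 and 4.69 on sham A, B and C. The highest and the lowest values were both from TAC, and the log2 difference was 0.20 (95% interval -0.62 to 1.03). It was -0.18 without TAC B and 0.48 without TAC C. Limma called none of the 5 kinase probe sets (adjusted p = 0.772 to 0.992). The intervals of the brightest probe sets leave room for differences of up to 0.29 for Jak1 and 0.38 for Jak2.

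Stat3, the transcription factor at the end of the pathway, was higher on the TAC arrays in both of its bright probe sets. Probe set 1460700_at measured 9.20, 9.30 and 9.32 on TAC A, B and C, against 9.07, 9.004 and 9.09 on sham A, B and C. The 3 TAC values lay above the 3 sham values. The means were 9.28 ± 0.06 after TAC and 9.05 ± 0.04 after sham (SD, n = 3 each), a log2 difference of 0.22 (SE 0.08, 95% interval 0.04 to 0.41) or 1.17-fold, and limma did not call it (adjusted p = 0.542, unadjusted p = 0.0236). The slightly brighter probe set 1426587_a_at measured 9.31, 9.50 and 9.39 on TAC A, B and C, against 9.04, 9.33 and 8.99 on sham A, B and C. Here the groups overlapped, because sham B stood as high as TAC A. The log2 difference was 0.28 (SE 0.11, 95% interval 0.0042 to 0.56), which limma did not call (adjusted p = 0.547). The Stat3 probe sets 1424272_at and 1459961_a_at were dim. The first of these averaged 2.35 after TAC and 2.34 after sham. The second averaged 3.46 after TAC and 3.94 after sham, with 4.49 on sham B alone among values of at most 3.80. After quantile normalization between arrays, 1460700_at was the 1 tested probe set of the 14 whose groups stayed apart (log2 difference 0.20). The share of all probe sets with groups apart was not counted under this normalization. Leaving out sham C and TAC B together brought 1426587_a_at to 0.17 and 1460700_at to 0.23.

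The 250 bases before an annotated transcription start of Stat3 and of Socs3 are shown because STAT3 is known to regulate both genes. The windows are RefSeq's for mouse assembly GRCm38.p6, minus strand, chr11:100939541-100939790 for Stat3 and chr11:117969367-117969616 for Socs3. The annotated Socs3 gene runs to base 117970336, so its window lies inside the gene. The annotated Stat3 gene runs to base 100939594, so its window lies partly inside the gene. Capitals mark the letters TTCNNNGAA, the palindromic core that STAT proteins bind, which reads the same on both strands.
Stat3: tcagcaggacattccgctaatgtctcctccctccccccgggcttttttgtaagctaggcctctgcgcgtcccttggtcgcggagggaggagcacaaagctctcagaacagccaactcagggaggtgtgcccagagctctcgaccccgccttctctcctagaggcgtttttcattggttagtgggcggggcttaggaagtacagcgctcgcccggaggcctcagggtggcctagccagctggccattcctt
Socs3: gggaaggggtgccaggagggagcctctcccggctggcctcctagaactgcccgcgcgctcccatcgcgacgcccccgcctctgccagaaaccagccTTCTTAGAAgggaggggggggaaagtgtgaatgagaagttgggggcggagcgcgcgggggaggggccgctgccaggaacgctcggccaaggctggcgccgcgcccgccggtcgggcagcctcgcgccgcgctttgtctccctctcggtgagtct
The Socs3 window held the core once, as TTCTTAGAA at bases -154 to -146 from the start, and the Stat3 window did not hold it. RefSeq windows were found for all 9 genes, 15 windows in all, and the Socs3 window was the only one of them with a match. Over 32851 windows of the same length in the genome, 7.02% held the core. A match of these letters is not a measured binding site, and a window without one says nothing of binding elsewhere.

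Socs3, the feedback inhibitor, varied more among the TAC arrays than between the groups. Probe set 1455899_x_at measured 5.78, 6.37 and 5.19 on TAC A, B and C, against 5.42, 5.82 and 5.30 on sham A, B and C. The TAC arrays held both the highest and the lowest value. The means were 5.78 ± 0.59 after TAC and 5.51 ± 0.27 after sham (SD, n = 3 each), with a log2 difference of 0.26 (SE 0.30, 95% interval -0.47 to 0.996; limma adjusted p = 0.771). Probe set 1456212_x_at measured 4.79, 5.68 and 3.61 on TAC A, B and C, against 4.26, 4.04 and 4.12 on sham A, B and C. TAC C lay below the floor and below every sham array, TAC A and B lay above every sham array, and the log2 difference was 0.55 (95% interval -0.61 to 1.71; limma adjusted p = 0.701). Without TAC B the differences were -0.03 for 1455899_x_at and 0.06 for 1456212_x_at, and without TAC C they were 0.56 and 1.09 (limma adjusted p = 0.707 for both). Affymetrix gives the suffix x to probe sets whose probes may also read other transcripts. The Socs3 probe set without that suffix, 1416576_at, was dim at 2.07 to 2.11 on every array.

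**Figure D2:**
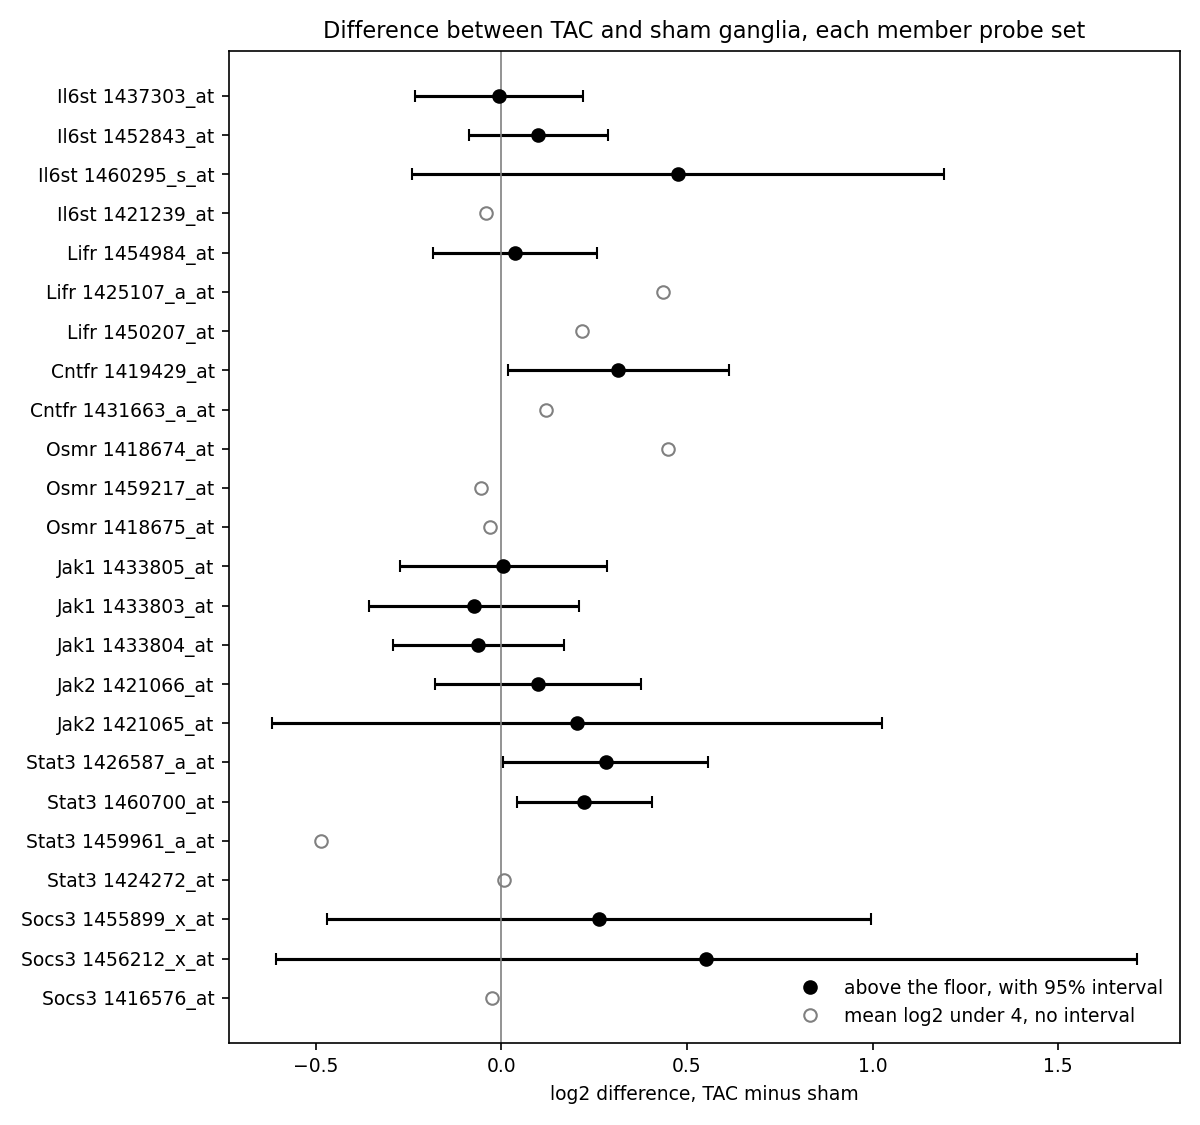
Log2 difference, TAC minus sham, of all 24 probe sets (horizontal axis), with limma's 95% interval for the 14 tested ones (filled) and no interval for the 10 dim ones (open). Only the intervals of Cntfr 1419429_at and the 2 bright Stat3 probe sets lie wholly above 0, before adjustment for the number of probe sets.

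The 10 dim probe sets were split evenly in direction, while most dim probe sets on the whole array were lower after TAC. In 5 of the 10, every TAC array lay below every sham array, and this held for 71.6% of all 27487 dim probe sets. The same 5 had the lower mean after TAC and the other 5 the higher mean, whereas 87% of all dim probe sets had the lower mean. Of the 5 lower ones, all but Stat3 1459961_a_at differed by less than 0.1 on the log2 scale. Of the 5 higher ones, Lifr 1450207_at and Osmr 1418674_at lay above the sham arrays on TAC B alone, and Cntfr 1431663_a_at on TAC C alone. Stat3 1424272_at differed by 0.0069, and Lifr 1425107_a_at by 0.43 with overlapping groups. In 0 of the 10 did every TAC array lie above every sham array, against 0.415% of all dim probe sets.

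TAC B carried the high values of several members. After these values were seen, a gap of at least 0.5 on the log2 scale above every other array was counted. TAC B stood that far above in 6 of the 24 probe sets, against 1.66% of all 45037 probe sets other than the array's controls, and in 4 of the 14 tested ones, against 2.87% of all tested. It was the highest array in 10 of the 24, against 13.8% of all, and in 6 of the 14 tested ones, against 26.7% of all tested. Those with the gap were Osmr 1418674_at at 1.42, Il6st 1460295_s_at at 1.0 and Socs3 1456212_x_at at 0.89 above the next array. Jak2 1421065_at at 0.74, Lifr 1450207_at at 0.72 and Socs3 1455899_x_at at 0.55 were the others. None of them was the brightest probe set of its gene except those of Osmr and Socs3, and the brightest probe sets of Il6st and Jak2 had lower values on TAC B than on the other TAC arrays. Over all probe sets tested, TAC B had the lowest mean correlation with the remaining arrays, 0.984, where the remaining arrays had 0.987 to 0.990. Such a gap was found in 0.371% of all probe sets for TAC A and 0.36% for TAC C, and in 0.455%, 0.693% and 0.44% for sham A, B and C.

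**Figure D3:**
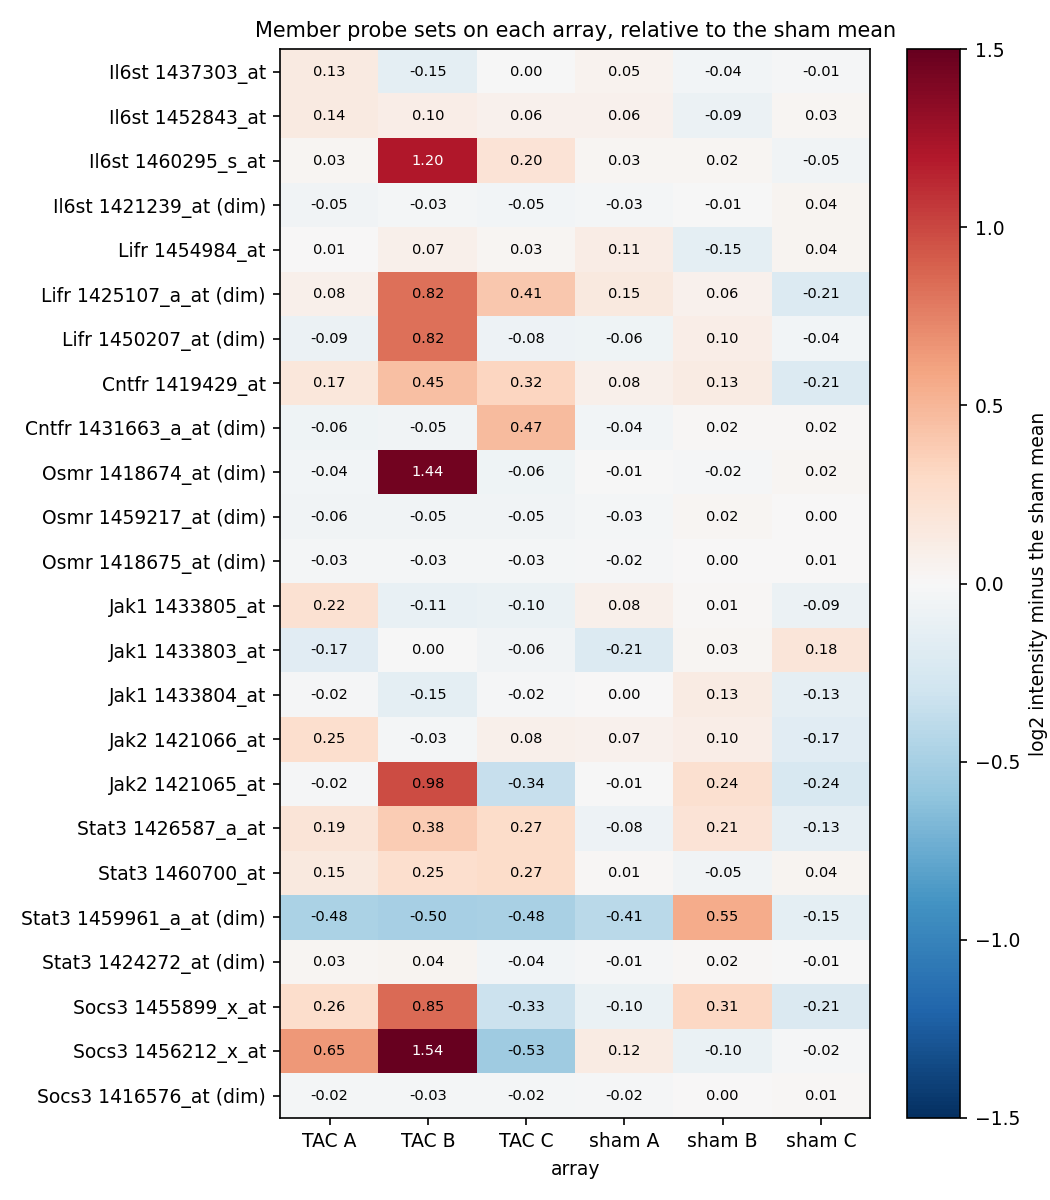
Log2 intensity minus the sham mean (colour and printed value) for each of the 24 probe sets (rows, dim ones marked) on each of the 6 arrays (columns, TAC at the left). High values gather in the TAC B column, in Osmr 1418674_at, Il6st 1460295_s_at, Jak2 1421065_at, both Lifr dim probe sets and 2 Socs3 probe sets, while the bright Stat3 probe sets lie above the sham mean on all 3 TAC arrays.

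Cell type markers were read by array beside these values, by the summed linear intensity of each list's genes above the floor. Defining markers of sympathetic neurons were present on every array, with 17 of 19 listed genes above the floor and sums of 152157 to 157031 on the TAC arrays and 146311 to 155288 on the sham arrays. The mural cell list, with 5 of 6 genes above the floor, summed to 2898 on TAC B, against 2077 and 2231 on TAC A and C and 1939 to 2015 on the sham arrays. The satellite glia list, with 9 of 11 above the floor, summed to 22410 on TAC B and 28990 and 27094 on TAC A and C. Its sums on the sham arrays were 28939 to 31290. A linear sum weighs bright genes most. Fabp7, the brightest of this list, was lowest on TAC B at 13.11, as were S100b, Kcnj10, Apoe and Ptprz1. Glul was highest there at 11.58, Cdh19 (11.21) lay above every sham array, and Sox10 and Erbb3 were lowest on sham A. Fat transcripts were high on TAC B and sham C, with white fat sums (2 of 5 genes above the floor) of 4452 on TAC B and 1308 and 1606 on TAC A and C, against 6871 on sham C and 1824 and 1800 on sham A and B. The skeletal muscle list (4 of 7 above the floor) had the largest median difference of the marker lists, -1.89, with sums of 222, 66.3 and 65.1 on TAC A, B and C, against 605, 47.7 and 1085 on sham A, B and C. The fibroblast list (8 of 12) summed to 7418 to 10261 on the TAC arrays and 8487 to 8809 on the sham arrays, and the macrophage list (10 of 13) summed to 1665 to 1993 on the TAC arrays and 1801 to 2076 on the sham arrays. No marker of T cells or neutrophils was above the floor, with 4 and 2 genes measured. The part of these cell types in the members' values was not tested.

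The rest of the pathway was read from 8 gene lists, with 41 of 81 listed genes above the floor. By brightest probe sets, none of the 41 was called, and 7 had an unadjusted p under 0.05, all higher after TAC. Of all 9955 genes tested, 5.43% passed as higher and 3.32% as lower. Less bright probe sets of Pias1 (1455611_at) and Slc6a2 (1447311_at) passed as lower. Of the 7, Vip, Gal and Sst were known to be higher when the lists were drawn up, and Sst passed the floor only through its TAC values. Th and Slc18a2 belong to the genes that these cytokines lower in culture, and Stat2 and Pias2 were the others. Without Vip, Gal and Sst, 4 of 38 passed. The median log2 difference of the 41 was 0.07, and of the 38 it was 0.06, against 0.02 over all genes tested. No listed ligand or other receptor chain was above the floor. Lif averaged 2.36 after TAC and 2.39 after sham, Il6 2.196 after TAC and 2.23 after sham, and Ctf1 (cardiotrophin-1) 2.17 after TAC and 2.24 after sham. Il11, Osm, Clcf1, Ebi3 and Il31 were dim as well, as were the receptor chains Il6ra (2.89 after TAC and 2.96 after sham), Il27ra and Il31ra. A dim probe set does not show that a transcript is absent.

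Among the other kinases and STATs, 4 of 8 genes were above the floor, 1 higher with an unadjusted p under 0.05 and 3 lower by at most 0.06, with a median of -0.02. Stat2, a STAT of the type I interferon signal, measured 5.52, 5.69 and 5.62 on TAC A, B and C, against 5.34, 4.98 and 4.91 on sham A, B and C. The groups did not overlap, and the log2 difference was 0.53 (SE 0.13), which limma did not call (adjusted p = 0.513). Another Stat2 probe set, 1421911_at, differed by -0.06. Tyk2, the JAK kinase next to Jak1 and Jak2 in this pathway, differed by -0.06, Stat6 by -0.04 and Stat5b by -0.0011.

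Among the adaptors that lead from the receptor to the MAP kinases, 6 of 10 genes were above the floor, 0 with an unadjusted p under 0.05, with a median of 0.09. The kinase gene Map2k1 was highest at 0.18, with TAC arrays above sham arrays, and Shc1 and Gab1 were at 0.11. The adaptor Grb2 was at -0.12. Ptpn11 (SHP2), which docks on gp130 at the tyrosine that SOCS3 also binds, was at 0.07.

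Of the inhibitors, 12 of 15 genes were above the floor, 8 higher and 4 lower, with a median of 0.02. Pias2, of a family that binds STATs and acts as SUMO ligases, was the 1 gene with an unadjusted p under 0.05 by its brightest probe set. It measured 6.91, 7.39 and 6.70 on TAC A, B and C, against 6.47, 6.08 and 6.62 on sham A, B and C, a log2 difference of 0.61 (SE 0.21; limma adjusted p = 0.542), and its other tested probe sets were at 0.29 and 0.27. Pias1 was at 0.30 by its brightest probe set and at -0.35 by 1455611_at (limma unadjusted p = 0.018), whose TAC arrays lay below its sham arrays. The SOCS family genes Socs7 at -0.18 and Cish at -0.21 also had their TAC arrays below their sham arrays, and Socs4 was at -0.17. Limma called none of these (adjusted p = 0.531 to 0.615). The other tested Socs7 probe set, 1434834_at, was at -0.08 with overlapping groups (limma adjusted p = 0.768). Cish lay near the floor, with a mean of 4.12 over all arrays and 3.85 on TAC A.

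Of 22 STAT3 target genes listed, 12 were above the floor, 8 higher and 4 lower, with 0 at an unadjusted p under 0.05 and a median of 0.13. The acute phase serpin gene Serpina3n measured 7.65, 8.78 and 7.57 on TAC A, B and C, against 7.31, 7.27 and 7.502 on sham A, B and C. All TAC values were above all sham values, with TAC B 1.13 above the next array, and the log2 difference of 0.64 (SE 0.32) was not called (limma adjusted p = 0.567). The repressor gene Bcl6 had its TAC arrays above its sham arrays too, at 0.22. Hif1a, the oxygen-regulated transcription factor, was at 0.28, and its other tested probe set at -0.01. The immediate-early gene Fos was at -0.63 with overlapping groups. TAC B was the highest array in 5 of the 12, where it was the highest in 26.7% of all probe sets tested, and Cebpd stood 0.59 above the next array there. Among the dim targets, Lcn2 and Atf3 were also high on TAC B. Lcn2 reached 4.70 there, against 3.07 to 3.27 on the other arrays, and Atf3 reached 4.19, against 2.66 to 2.75.

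Of 8 genes that gp130 cytokines raise in cultured sympathetic neurons, 3 were above the floor, and all 3 were higher after TAC in every array, with unadjusted p under 0.05 and no call by limma. These peptide genes were already known to be higher in these arrays when the list was drawn up, so they do not stand as separate evidence of a direction. Gal (galanin) had a log2 difference of 1.05 and Vip (vasoactive intestinal peptide) of 0.57. Sst (somatostatin) was under the floor on every sham array, and its TAC mean of 6.45 lay 2.45 above the floor, so it was at least 5.46-fold higher after TAC, taking the floor as the sham level. Their order over the TAC arrays was not the same. Gal was highest on TAC B at 13.97, Vip was highest on TAC A at 12.60 and lowest on TAC B at 12.05, and Sst was highest on TAC C at 7.05. The peptide gene Tac1 (substance P) was dim, at 2.92 after TAC and 2.95 after sham. The cholinergic genes of the same list were dim in both groups. Chat averaged 2.32 after TAC and 2.35 after sham, the vesicular transporter gene Slc18a3 2.69 after TAC and 2.47 after sham, and the choline transporter gene Slc5a7 2.13 after TAC and 2.17 after sham.

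All 4 noradrenergic genes that these cytokines lower in culture were above the floor. By brightest probe sets, 0 were lower at an unadjusted p under 0.05. Th, which encodes the enzyme that limits catecholamine synthesis, was at 0.24 (limma adjusted p = 0.531), and the vesicular transporter gene Slc18a2 was at 0.29 (limma adjusted p = 0.542), both with TAC arrays above sham arrays. Dbh was at 0.03 and the noradrenaline transporter gene Slc6a2 at -0.10. Slc6a2 probe set 1447311_at was at -0.37, with TAC arrays below sham arrays (limma unadjusted p = 0.0251, adjusted p = 0.542). Other Slc6a2 probe sets were at 0.19 and 0.07.

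**Figure D4:**
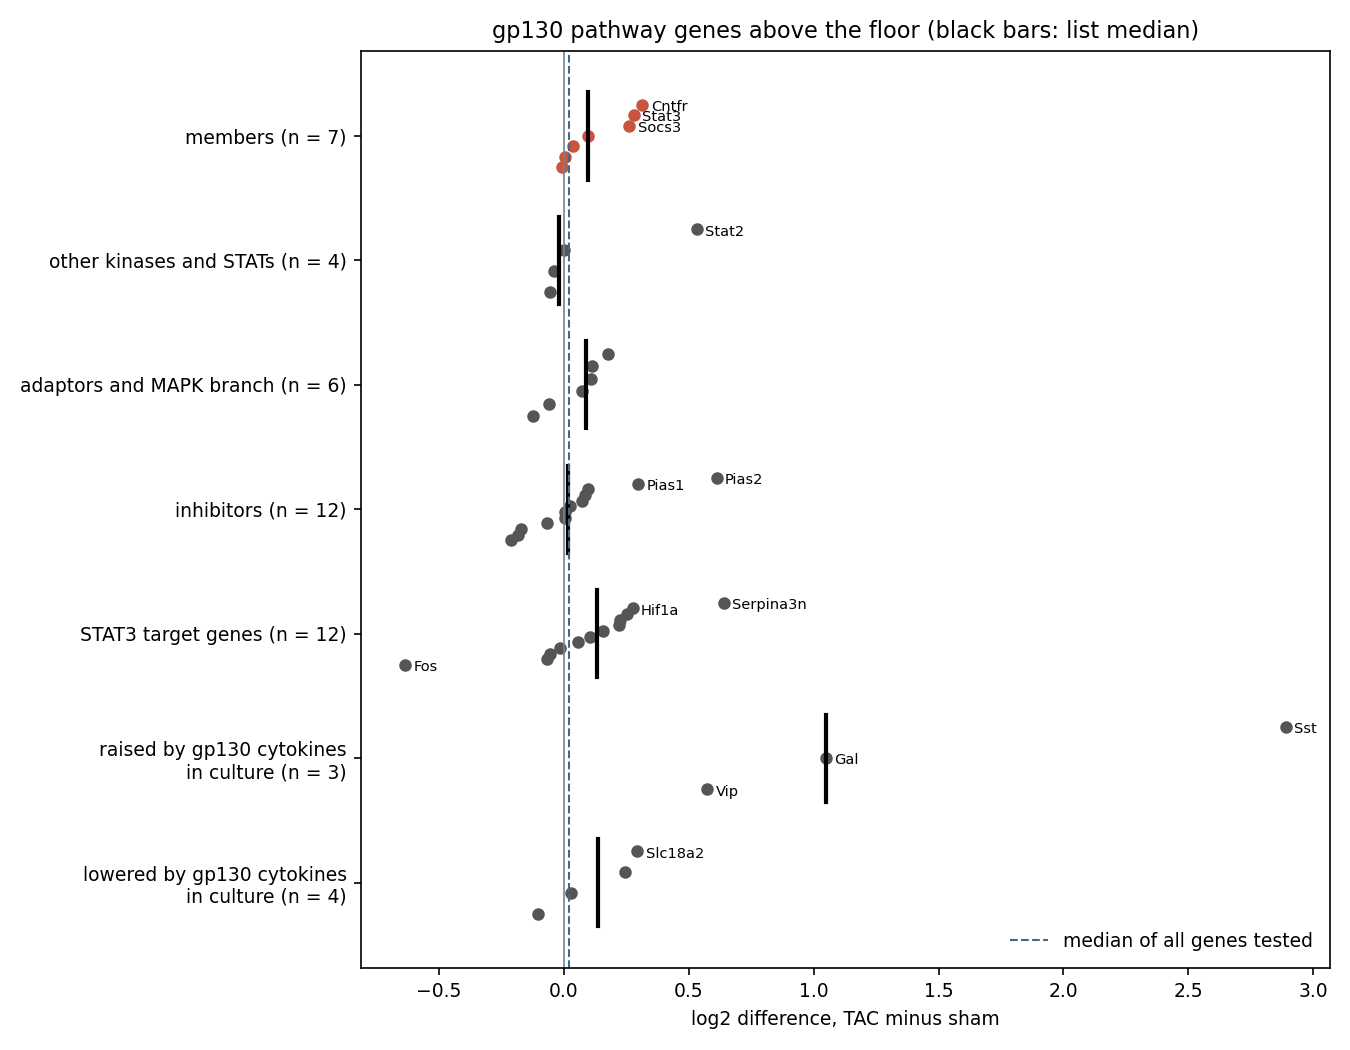
Log2 difference, TAC minus sham (horizontal axis), of each gene above the floor in the 9 named genes (7 shown) and in 6 of the pathway lists, with black bars for list medians and a dashed line for the median of all genes tested. Points spread on both sides of 0 except among the genes raised by gp130 cytokines in culture, where Vip lies at 0.57, Gal at 1.05 and Sst furthest to the right, drawn at its measured difference although its sham values are under the floor.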

How the data were processed

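The authors deposited linear intensities, 1 per probe set and array, made with GCRMA (background correction, normalization between arrays and summary of probes), per the submitters' processing notes. Its version was not given there. They were log2-transformed with no pseudocount. The table held 45101 probe sets, 64 of them array controls. Probe sets with a mean log2 intensity under 4 were called dim, which left 17550 for testing. Probe sets were named by the platform's annotation in GEO. TAC and sham were compared with limma 3.58.1 in R 4.3.3 (lmFit, eBayes, two-sided), with Benjamini-Hochberg adjustment over all probe sets tested and a threshold of 0.05. Standard errors and intervals are limma's. The brightest probe set stood for a gene. The fit was tested on simulated data. Array number limits the precision, and p-values measure the spread between these 6 arrays.

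Every probe set of the 9 genes is named, and of each pathway list up to 4 genes of smallest unadjusted p plus Lif, Il6, Il6ra, Tyk2, Vip, Gal, Chat and Th; 1 further gene of this rule is not reported here. Other pathway genes were named after their values were seen. Members and lists were chosen with earlier results of these data known. The main fit did not pair arrays by title letter. Deviations from the group means correlated at 0.08, -0.0031 and -0.17 between arrays of the same letter. Between arrays of different letters they correlated at -0.13 to 0.14. Such correlations cannot decide whether the letters stand for a pairing. Alternatives covered the floor, variances, array weights, normalization, several probe sets per gene, the letter as a block and arrays left out. Promoter sequences are RefSeq's, matched by symbol.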

Additional observations from a re-analysis of the deposited data

How the results depend on the processing

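With 6 arrays, the upper ends of the 95% intervals of the brightest tested probe sets lay between 0.22 (Il6st) and 0.996 (Socs3). No alternative called a member probe set at an adjusted p under 0.05, and 3 passed at an unadjusted p under 0.05, as did 7 pathway genes and 1594 probe sets in all. Cntfr, Jak2 and Stat3 kept their direction in all 14 alternatives, at 0.14 to 0.38, 0.01 to 0.17 and 0.17 to 0.38, with limma adjusted p of at least 0.238, 0.501 and 0.238. The member median stayed at 0.05 to 0.19. With the letter as a replicate block no member call changed, and Stat3 was at 0.28 (limma adjusted p = 0.602). The cause of the changes that follow was not tested unless stated. Member probe sets with groups apart numbered 9 of 24 with no floor, where the 10 dim ones enter. Over the whole array, groups were apart in 17.9% of tested probe sets, and in 71.6% (TAC below) and 0.415% (TAC above) of dim ones. With quantile normalization the number of member probe sets apart was 1, and the share of all probe sets was not counted. The pathway median was -0.016 with no floor, 0.042 with quantile normalization and 0.057 to 0.082 with 1 array left out. Probe sets called over the whole array numbered 2 (Sst and Cartpt) with the mean of all probe sets of a gene, and 0 to 1 with 1 array left out (Mir670hg without TAC B, Sst without TAC C). Pathway genes called numbered 1 (Sst) under that gene mean and 0 to 1 with 1 array left out (Sst without TAC C). Of probe sets with an unadjusted p under 0.05, 66.4% were higher after TAC, against 48.9% with quantile normalization and 16.3% with no floor. Differences near 0 changed sign. Il6st (-0.01) was 0.0203 with array weights, 0.19 with the mean of its probe sets, 0.057 without sham C and TAC B, and -0.0745 to 0.0632 with 1 array left out. Lifr (0.04) was -0.0367 to 0.0915 with 1 array left out, negative without sham B. Jak1 (0.01) was -0.0438 with the mean of its probe sets and -0.104 to 0.0618 with 1 array left out. Socs3 (0.26) was -0.14 without sham C and TAC B, and -0.0322 to 0.558 with 1 array left out, negative without TAC B. A floor of 6 gave no value for Socs3.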

Other observations

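The probe set 1422033_a_at, whose annotation lists Gm44505, Zfp91 and Cntf together, measured 6.50, 8.57 and 5.95 on TAC A, B and C, against 6.18, 5.68 and 6.16 on sham A, B and C. TAC B stood 2.07 above the next array, TAC A lay above the sham range, and TAC C inside it. The log2 difference was 0.997 (95% interval -0.57 to 2.56; limma adjusted p = 0.634). The value cannot be given to any of the listed genes.

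Stat5a, dim in the mean, measured 3.74, 3.42 and 3.42 on TAC A, B and C, against 3.10, 3.08 and 3.10 on sham A, B and C. Every TAC array lay above every sham array, as in 0.415% of all dim probe sets. It was not tested under the floor.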
